A study of Mus musculus with 17 samples.

Results

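Integrins, laminins and the proteins of focal adhesions connect a fibroblast to the matrix around it. Of the 8446 rows of the expression table, 41 are genes of this system, chosen by symbol: integrin α and β subunits, laminin chains, nidogens, perlecan, thrombospondins, talins, kindlins, parvins, PINCH proteins, tensins, actinins, filamins and single focal adhesion genes such as Vcl, Pxn and Ilk. The mouse annotation holds 69 protein-coding genes that follow the same rule, and those without a row are not analysed here. They include the integrin subunits Itga1, Itga2, Itga3, Itga4, Itga6, Itga8, Itgb4 and Itgb8 and the laminin chains Lama3, Lama5 and Lamb3.

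An integrin is a pair of an α and a β subunit that spans the membrane. Outside the cell it binds matrix proteins such as fibronectin, collagen or laminin, and inside the cell talin and kindlin bind the β tail, vinculin and the ILK, PINCH and parvin complex join, and actinin and filamin link the assembly to actin. Laminins are trimers of an α, a β and a γ chain that form the sheet of a basement membrane, to which nidogen and perlecan bind. In skin, basement membranes underlie the epidermis and surround vessels, nerves, hair follicles and fat cells, and dermal fibroblasts lie in collagen matrix between them.

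The values come from 17 single Tomato-positive cells of the back skin of adult C57BL/6 mice of genotype Prrx1-CreERT;Tomato. Tamoxifen had been injected once a day for 3 days, at 2 mg per 30 g of body weight. In these mice a tamoxifen-activated Cre recombinase made under Prrx1 control switches on a red reporter, so a red cell is one in which Prrx1 was active during treatment, or a descendant of it. All cells form 1 group with no untreated or Tomato-negative cells. No label names the animal of a cell, so the 17 cells were treated as 1 sample with no test, and SDs describe the spread over cells.

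The deposited values are read as log2 of FPKM (fragments per kilobase of transcript, scaled to library size) plus 1 and are called log2 values below. A gene is called detected in a cell at FPKM 1 or more (log2 value 1), and the count at FPKM 10 or more (log2 value 3.46) is given beside most counts. Every cell has the same number of rows at FPKM 1 or more, 4369 (51.7%), because the distribution of values was made equal between cells, so depth per cell is unknown. Between 871 and 1766 rows per cell were at the lowest value. The cells were split by number into cells 1 to 5, 6 to 14 and 15 to 17, sets that no label names. Among 224 genes under 2.5 in all cells, the mean Spearman correlation was 0.276 between cells of the same set. Between cells of different sets it was 0.0977. The source of the bounds is not stated, and they may have been set with these same values known. The difference therefore cannot support the split and is given as a description. Whether libraries share low values was not tested. A count at FPKM 1 is read as less firm than one at FPKM 10. Of 12 dermal fibroblast markers 11 had a row, and each cell had 9 to 11 of them at FPKM 1 or more. Markers of other cell types were detected in some cells. Rows existed for 6 of 12 listed pericyte and smooth muscle markers, 3 of 10 endothelial markers and 2 of 10 keratinocyte markers. They existed for 2 of 6 Schwann cell, 1 of 11 leukocyte and 0 of 6 skeletal muscle markers. At FPKM 10 or more the median count per cell was 1 for endothelial markers and 0 for each other measured type. At FPKM 1 or more a cell held up to 5 of 6 measured pericyte and smooth muscle markers, up to 2 of 3 endothelial markers and up to 2 of 2 Schwann cell markers, of which Mbp was found in 12 cells. Keratinocyte markers reached at most 1 of 2 in a cell. At most 1 of 6 measured pericyte and smooth muscle markers (summed log2 value 0.151 to 11.4 per cell), 1 of 3 endothelial markers (0.422 to 7.57), 1 of 2 keratinocyte markers (0 to 5.63), 1 of 2 Schwann cell markers (0.555 to 7.70) and the 1 measured leukocyte marker (0 to 4.69) reached FPKM 10 in any cell. Their part in the values below was not tested.

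The results turn on the integrin αv subunit gene and the genes of its β partners, and the promoters of 3 of these genes are therefore shown. Each is the 200 bases just before the RefSeq start, on the plus strand of GRCm38.p6, read 5′ to 3′. Itgb1 was detected in every cell, at chr8:128685454-128685653. Itgav varied widely between cells, at chr2:83724197-83724396. Itgb5 was detected in some cells, at chr16:33829465-33829664. Capitals mark matches, on either strand, to the GC box GGGCGG and to GGAATG, the core of the TEAD site.
Itgb1: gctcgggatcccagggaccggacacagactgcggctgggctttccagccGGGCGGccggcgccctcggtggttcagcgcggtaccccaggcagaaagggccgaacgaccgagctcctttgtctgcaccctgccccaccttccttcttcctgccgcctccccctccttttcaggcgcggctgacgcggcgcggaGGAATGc
Itgav: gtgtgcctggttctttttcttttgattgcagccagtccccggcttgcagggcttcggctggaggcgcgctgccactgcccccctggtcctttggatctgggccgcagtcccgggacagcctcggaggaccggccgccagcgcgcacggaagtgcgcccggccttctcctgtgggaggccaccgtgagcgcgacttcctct
Itgb5: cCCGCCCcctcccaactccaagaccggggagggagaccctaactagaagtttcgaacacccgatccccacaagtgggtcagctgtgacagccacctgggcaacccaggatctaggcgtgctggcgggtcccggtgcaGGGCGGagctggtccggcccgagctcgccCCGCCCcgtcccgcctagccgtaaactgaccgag

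The 3 windows are rich in G and C, at 70%, 68% and 68% of bases for Itgb1, Itgav and Itgb5, where the median over all 32851 RefSeq promoter windows of the same length is 53%. Itgb5 has 3 GC boxes, Itgb1 has 1, and the Itgav window holds none. The GGAATG match of Itgb1 begins at base -7 from the start. None of the 3 windows holds the CCAAT box, the TATA box searched as TATAAA, the AP-1 motif searched as TGANTCA, or a CArG box. Of the 41 genes 29 have entries in the promoter table, with 34 windows, of which 22 (64.7%) hold a GC box, against 31% of all windows. GGAATG stood in 6 of the 34 windows (17.6%), against 10.1% of all windows, and the CCAAT box in 10 (29.4%), against 29.3%. The TATA box and the AP-1 motif each stood in 2 windows (5.88%, against 9.96% and 5.48% of all windows) and the CArG box in 1, that of Lama2 (2.94%, against 1.18%). Matches of different motifs were counted separately. The table of all windows includes genes of every type, expressed here or not.

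Adhesion genes were detected at shares above those of all rows. At FPKM 1 or more 10 of 41 were found in all 17 cells (24.4%, against 13% of all rows), and at FPKM 10 or more 3 were (7.32%, against 5.65%), close to the share of all rows. In at least 9 cells, 29 were found at FPKM 1 or more (70.7%, against 46.9% of all rows) and 17 at FPKM 10 or more (41.5%, against 26.6%). In at most 3 cells, 6 were found at FPKM 1 or more, namely Itgb7, Itga9, Itga7, Nid2, Bcar1 and Actn1 (14.6%, against 18.8%). The median of the genes' mean log2 values was 2.93, and that of all rows 1.89. The genes are long, with a median exonic length of 6127 bases against 4414 over the 8431 rows with an annotated length. The library kit reads the 3′ ends of transcripts while FPKM divides by length, and with values multiplied by exonic length the medians were 5.52 and 3.18.

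**Figure D1:**
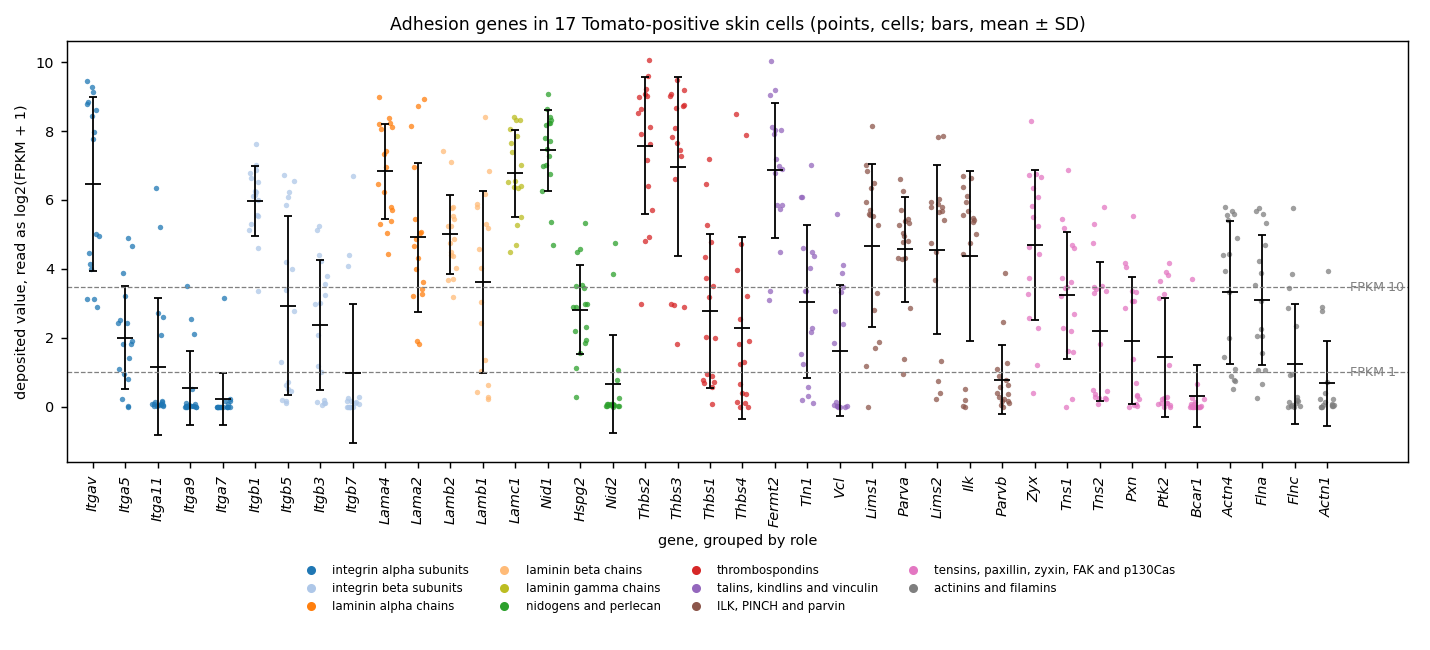
Deposited log2 values of 39 of the 41 adhesion genes, grouped and coloured by role. Each point is 1 of 17 cells, horizontal bars and whiskers give mean ± SD over cells, and dashed lines mark FPKM 1 and FPKM 10. Nid1, Lama4 and Lamc1 lie above FPKM 10 in every cell, while Itgav, Thbs3, Itgb5 and Lamb1 spread over most of the scale.

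Among integrin β subunits, Itgb1, the β1 chain shared by most fibroblast integrins, was the steadiest. Its log2 value was 3.35 at the lowest (cell 1), 6.15 at the median and 7.64 at the highest (cell 17), with a mean of 5.98 (SD 1.02, n = 17 cells). It was detected in all 17 cells (exact 95% interval 80.5% to 100%) and at FPKM 10 or more in 16. The intervals here and below treat the cells as independent draws, which is not known. The gene (ENSMUSG00000025809) lies on chromosome 8 from 128685654 to 128733200 in GRCm38.

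The other β subunits were found in fewer cells. Itgb5, the β5 chain of the vitronectin receptor, ranged from 0.0896 to 6.74 with a median of 2.78 (mean 2.93, SD 2.60) and was detected in 10 cells, 7 of them at FPKM 10 or more. The gene (ENSMUSG00000022817) lies on chromosome 16 from 33829665 to 33949338. The 7 cells were cells 1, 2, 5, 12, 13, 16 and 17, whereas cells 10, 11 and 14 lay under 0.2. Itgb3, the β3 chain, ranged from 0.0465 to 5.24 with a median of 2.97 (mean 2.38, SD 1.89) and was detected in 12 cells, 6 of them at FPKM 10 or more. Itgb7, a chain known from lymphocyte integrins, was detected in 3 cells, with log2 values of 4.40 in cell 10, 4.08 in cell 11 and 6.70 in cell 15. It was under 0.3 in the other cells. Of 11 listed leukocyte markers only Csf1r had a row. Csf1r was 0.172, 0 and 0.140 in cells 10, 11 and 15 and was detected in 5 others. Listed markers such as Ptprc, Cd3e and Cd3g had no row, so leukocyte signal in cells 10, 11 and 15 was not tested.

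Itgav, the αv subunit that pairs with β1, β3 and β5 to bind RGD-containing matrix proteins, split the cells into high and low values. It was lowest in cell 3 (2.88) and highest in cell 5 (9.45), with a median of 7.76 and a mean of 6.47 (SD 2.53, n = 17 cells). Cells 1, 5, 6, 7, 8, 9, 12, 13 and 14 lay at 7.76 or more, and the other 8 cells lay at 5.01 or less. No cell fell between these values, and 14 cells were at FPKM 10 or more. The gene (ENSMUSG00000027087) spans chromosome 2 from 83724397 to 83806916, and a non-coding transcript on the opposite strand, Gm13684, overlaps 634 of its 10744 exonic bases, outside the last 500 at the 3′ end.

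The other α subunits with a row were low. Itga5, the α5 chain of the fibronectin receptor, was detected in 12 cells with a highest value of 4.90 in cell 16, and in 3 cells (6, 16 and 17) at FPKM 10 or more. Its median was 1.81 (lowest 0, mean 2.00, SD 1.50). Itga11, the α11 chain of a fibroblast collagen receptor, was detected in 5 cells, 2 of them at FPKM 10 or more, and was highest in cell 16 (6.34) and cell 2 (5.20). Itga9 was detected in 3 cells and at FPKM 10 or more in 1 (highest 3.49) and Itga7, a laminin receptor chain of muscle, in cell 3 alone (3.15), under FPKM 10.

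**Figure D2:**
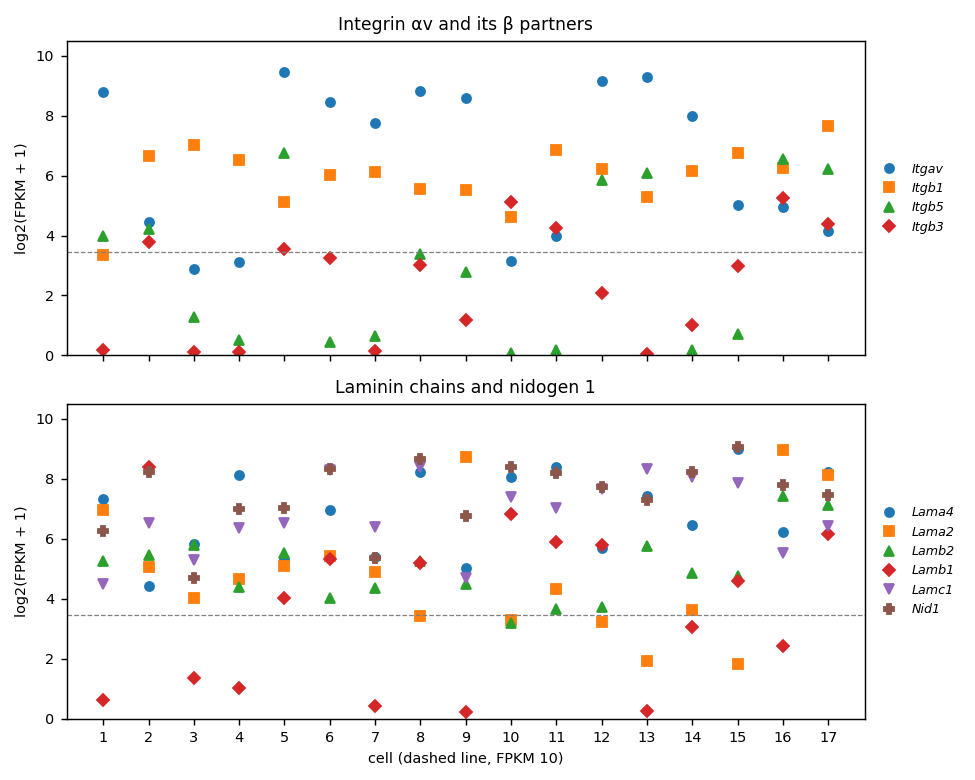
Deposited log2 values by cell for Itgav and the genes of its β partners (upper panel) and for laminin chains and Nid1 (lower panel). Each symbol is 1 gene in 1 cell, and the dashed line marks FPKM 10. Itgb1 stays between 3.35 and 7.64 while Itgav lies at 7.76 or more in 9 cells and at 5.01 or less in 8.

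Transcripts of αv and β1 were detected together in all 17 cells, and in 13 cells (50.1% to 93.2%) with both at FPKM 10 or more. The αv and β5 pair was found in 10 cells and, at FPKM 10 or more, in 7. The αv and β3 pair was found in 12 cells and, at FPKM 10 or more, in 5, namely cells 2, 5, 11, 16 and 17. Since Itgav was detected in every cell, the pair counts at FPKM 1 or more only repeat those of the β subunits. In cells 3, 4 and 10 Itgav itself was under FPKM 10. Over the 17 cells Itgav and Itgb1 had a Pearson correlation of -0.52 (Spearman -0.63), but 0.09 in cells 6 to 14. Itgav and Itgb5 had 0.35 (Spearman 0.48), and 0.64 in cells 6 to 14. Itgav and Itgb3 had -0.31 (Spearman -0.18), and -0.74 in cells 6 to 14, opposite in sign to Itgb5. The points share 1 normalisation, and joint detection of transcripts says nothing on paired proteins at the surface.

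Laminin chains were led by Lama4 and Lamc1. Lama4 (ENSMUSG00000019846, chromosome 10 from 38965515 to 39110188) encodes the α4 chain of laminins of vessels, fat and muscle. Its log2 value ranged from 4.43 in cell 2 through a median of 6.96 to 8.98 in cell 15 (mean 6.83, SD 1.39). Lamc1 (ENSMUSG00000026478, chromosome 1 from 153218922 to 153332786), the γ1 chain found in most laminins, ranged from 4.49 in cell 1 through 6.54 to 8.40 in cell 8 (mean 6.78, SD 1.26). Both were above FPKM 10 in every cell.

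Lama2, the α2 chain best known from muscle and nerve, was detected in all 17 cells and in 12 at FPKM 10 or more. It was lowest in cell 15 (1.81), had a median of 4.67 and was highest in cell 16 (8.95), with a mean of 4.91 (SD 2.16). Cells 9, 16 and 17 lay above 8 and the next, cell 1, at 6.96. Without cell 16 the mean was 4.66. An antisense gene, Gm48084, overlaps 631 of 16338 exonic bases of Lama2, 93 of them in the last 500, and the counting is not known to use strand, so reads of both could have been counted together.

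The β chains differed in their spread. Lamb2 (β2) was detected in all cells, 16 of them at FPKM 10 or more, and ranged from 3.19 in cell 10 through 4.86 to 7.42 in cell 16 (mean 5.00, SD 1.14). Lamb1 (β1, chromosome 12 from 31265234 to 31329644) was detected in 13 cells, 9 of them at FPKM 10 or more, and ranged from 0.234 in cell 9 through 4.03 to 8.40 in cell 2 (mean 3.62, SD 2.64). Cells 1, 7, 9 and 13 lacked Lamb1 at FPKM 1 and had Lamb2 at 4.37 or more.

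Complete laminin trimers could be counted for combinations with γ1. The α chains Lama4 and Lama2 and the γ chain Lamc1 were detected in every cell. Trimer counts at FPKM 1 or more therefore only repeat those of the β chain. All 17 cells had Lama4, Lamb2 and Lamc1, and 16 (71.3% to 99.9%) had them at FPKM 10 or more, cell 10 being the exception through Lamb2. Lama2, Lamb2 and Lamc1 were found together in 17 cells and in 12 at FPKM 10 or more. With Lamb1 in place of Lamb2, the Lama4 trimer was found in 13 cells and in 9 at FPKM 10 or more, and the Lama2 trimer in 13 and 5. Lama2 and Lamc1 ran opposite to each other over the cells, with a Pearson correlation of -0.72 (Spearman -0.66), -0.82 in cells 6 to 14 and -0.70 without cell 16. The pair was picked among 406 pairs after its value was seen.

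Nid1, the nidogen that binds the γ1 chain of laminin, was above FPKM 10 in every cell. It was lowest in cell 3 (4.71), had a median of 7.72 and was highest in cell 15 (9.07). Its mean of 7.44 (SD 1.17) had rank 2 of the 41 on the deposited scale and rank 3 with values multiplied by exonic length. The gene (ENSMUSG00000005397) lies on chromosome 13 from 13437551 to 13512269. Nid1 and Lamc1 had a Pearson correlation of 0.66 (Spearman 0.75), 0.61 in cells 6 to 14. Nid2 was detected in 3 cells, at 4.75 in cell 10, 3.84 in cell 2 and 1.06 in cell 8, and 437 of its last 500 exonic bases overlap Rtraf on the opposite strand. Hspg2, which encodes the large proteoglycan perlecan, was detected in 16 cells but at FPKM 10 or more in 5, with a median of 2.89 and a highest value of 5.33 in cell 16 (lowest 0.274, mean 2.81, SD 1.30).

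Thrombospondins, secreted glycoproteins that bind integrins, CD47 and matrix, divided into abundant and scarce members. Thbs2 had the highest mean of the 41 genes on the deposited scale, 7.58 (SD 1.98). With values multiplied by exonic length its mean was 10.365 (rank 2), after Lama4 at 10.4033. The deposited log2 value of Thbs2 was lowest in cell 13 (2.98), had a median of 8.11 and was highest in cell 9 (10.07). Cell 13 was the only cell under FPKM 10, and cells 1 and 3 lay under 5. The gene (ENSMUSG00000023885) lies on chromosome 17 from 14665500 to 14694235.

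Thbs3 (ENSMUSG00000028047, chromosome 3 from 89215180 to 89226837) was detected in all cells but showed a gap. Cell 7 was at 1.82 and cells 2, 10 and 11 at 2.90 to 2.97, and the remaining 13 cells lay between 6.61 and 9.49 (median of all cells 7.84, mean 6.97, SD 2.59). Mtx1 on the opposite strand overlaps 318 exonic bases of Thbs3, none in the last 500. Over the cells the correlation of Thbs3 and Mtx1 was -0.18 (Spearman -0.38).

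Thbs1 was detected in 10 cells, 7 of them at FPKM 10 or more, with a median of 2.04 and a highest value of 7.19 in cell 4 (lowest 0.0801, mean 2.77, SD 2.24). Thbs4 (chromosome 13 from 92751590 to 92794818), known from tendon and muscle matrix, was detected in 10 cells, 4 of them at FPKM 10 or more, and had the largest SD among genes detected in at least 9 cells (2.64, mean 2.28). It reached 8.49 in cell 14 and 7.88 in cell 8, lay at 4.72 in cell 17 and 3.96 in cell 13, and was at or under 3.22 elsewhere, with a median of 1.30.

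Inside the cell, Fermt2 had the highest mean of the measured talins, kindlins and vinculin, though Tln1 was higher in cells 2, 3 and 4. Fermt2 (chromosome 14 from 45458795 to 45530118), the kindlin of mesenchymal cells, ranged from 3.11 in cell 3 through 7.0 to 10.04 in cell 10 (mean 6.86, SD 1.96) and was at FPKM 10 or more in 15 cells. Cells 10, 11 and 15 lay above 9, and cells 3 and 17 were under FPKM 10. Tln1, the talin that activates integrins, was detected in 13 cells and in 7 at FPKM 10 or more, with a median of 3.35 and a highest value of 7.01 in cell 2 (lowest 0.101, mean 3.05, SD 2.22). Its 3′ end is free of overlapping genes, but Creb3 on the opposite strand shares 360 exonic bases. Tln1 and Fermt2 were found together in 13 cells, which repeats the count of Tln1 since Fermt2 was detected in every cell, and at FPKM 10 or more in 7.

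Vcl, vinculin, which links talin to actin, was detected in 8 cells and in 4 at FPKM 10 or more, with a highest value of 5.58 in cell 11 and a median of 0.127. All of its last 500 exonic bases overlap Ap3m1 on the opposite strand (mean log2 value 1.77), so the value of Vcl is uncertain. Tln1 and Vcl were found together in 6 cells and in no cell at FPKM 10 or more, where the exact 95% interval reaches 19.5%.

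**Figure D3:**
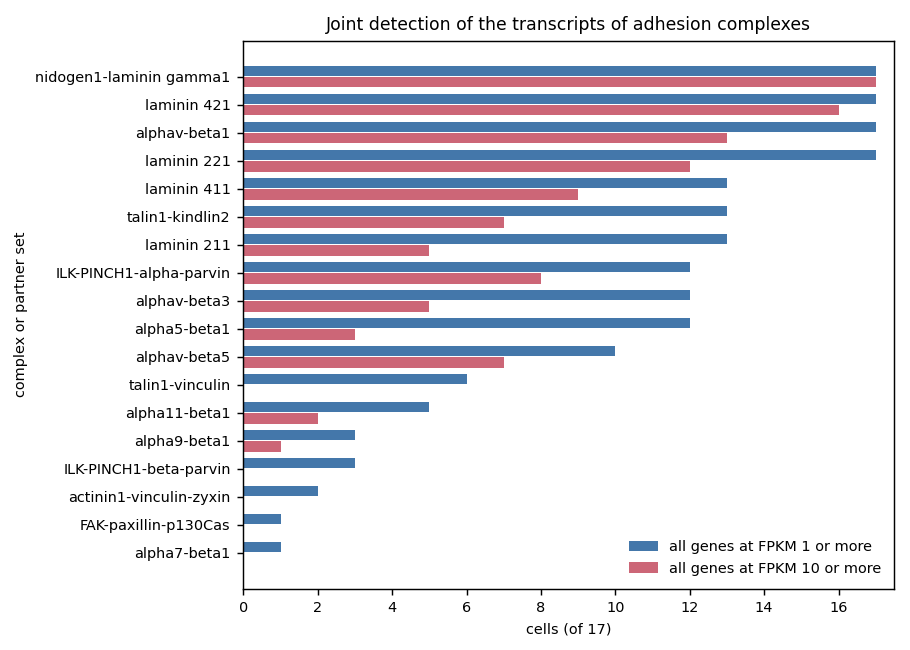
Number of the 17 cells in which all genes of a complex or partner set were detected, at FPKM 1 or more (blue) and at FPKM 10 or more (red), for the 18 sets in which every gene has a row. The digits of a laminin name give its α, β and γ chain. Where all genes of a set but 1 were detected in every cell, the count at FPKM 1 or more is that of the remaining gene. In 4 sets all genes were found in all 17 cells at FPKM 1 or more, and in 1, Nid1 with Lamc1, also at FPKM 10 or more.

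The ILK, PINCH and parvin complex couples the β tail to actin. On the deposited scale the means of Lims1, Parva, Lims2 and Ilk lay between 4.37 and 4.67, and Parvb was far lower at 0.781. With values multiplied by exonic length the means lay further apart. They were then 7.78 for Parva, 6.71 for Lims1, 5.95 for Lims2, 5.52 for Ilk and 1.74 for Parvb. Lims1 (PINCH1) had a mean of 4.67 (SD 2.37), a median of 5.56 and a highest value of 8.16 in cell 7, and was detected in 16 cells, 11 of them at FPKM 10 or more, and was 0 in cell 5. Parva, α-parvin, had a mean of 4.57 (SD 1.53), a lowest value of 0.957 in cell 10, a median of 4.94 and a highest value of 6.59 in cell 8, and was detected in 16 cells, 14 of them at FPKM 10 or more. Lims2 (PINCH2) had a mean of 4.56 (SD 2.45) and a median of 5.65, was highest in cell 4 (7.86) and was detected in 14 cells, 13 of them at FPKM 10 or more, with 0.209 in cell 7 and under 1 in cells 11 and 12.

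Ilk itself showed 13 cells between 4.42 and 6.71, all above FPKM 10, and 4 cells at or under 0.52, namely cells 2, 5, 9 and 13 (mean 4.37, median 5.43, SD 2.47). Rrp8 overlaps 355 of its exonic bases, and all of its last 500 exonic bases overlap Taf10 on the opposite strand, so reads of the 2 genes may be mixed. Taf10 was detected in 10 cells, 6 of them at FPKM 10 or more, with a mean of 2.76, and its correlation with Ilk was -0.46 (Spearman -0.22). Ilk, Lims1 and Parva were found together in 12 cells and in 8 at FPKM 10 or more. Parvb, β-parvin, was detected in 4 cells and in 1, cell 3 (3.88), at FPKM 10 or more.

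Among adaptors, Zyx was the highest. Zyxin, a LIM protein that gathers at tensed focal adhesions, had a mean of 4.70 (SD 2.18), with 0.399 in cell 9, a median of 5.24 and 8.29 in cell 17, and was detected in 16 cells, 12 of them at FPKM 10 or more. Tns1, a tensin that binds actin and the β tail, was detected in 15 cells, 8 of them at FPKM 10 or more (median 3.43, highest 6.88 in cell 12, lowest 0 in cell 5, mean 3.23, SD 1.83). Tns2 (median 1.80, highest 5.79 in cell 11, lowest 0.0611, mean 2.18, SD 2.03) and Pxn, paxillin (median 1.37, highest 5.53 in cell 16, lowest 0, mean 1.92, SD 1.84), were each detected in 9 cells, with 5 for Tns2 and 3 for Pxn at FPKM 10 or more.

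The focal adhesion kinase gene Ptk2 was detected in 7 cells and in 4 at FPKM 10 or more, with a highest value of 4.17 in cell 11. Bcar1, the scaffold p130Cas, was detected in cell 3 alone (3.71, above FPKM 10). Cell 3 was also the only cell with Ptk2, Pxn and Bcar1 together.

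Of the proteins that bundle or anchor actin, Actn4 was detected in 13 cells and in 9 at FPKM 10 or more (median 3.92, lowest 0.497, highest 5.80 in cell 4, mean 3.32, SD 2.07), and 316 of its last 500 exonic bases overlap Capn12. Flna, filamin A, was detected in 15 cells but at FPKM 10 or more in 8 (median 3.06, lowest 0.254, highest 5.78 in cell 15, mean 3.10, SD 1.89). Flnc was detected in 5 cells and at FPKM 10 or more in 2 (highest 5.76 in cell 16), and Actn1 in 3 and 1 (highest 3.94 in cell 4).

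**Figure D4:**
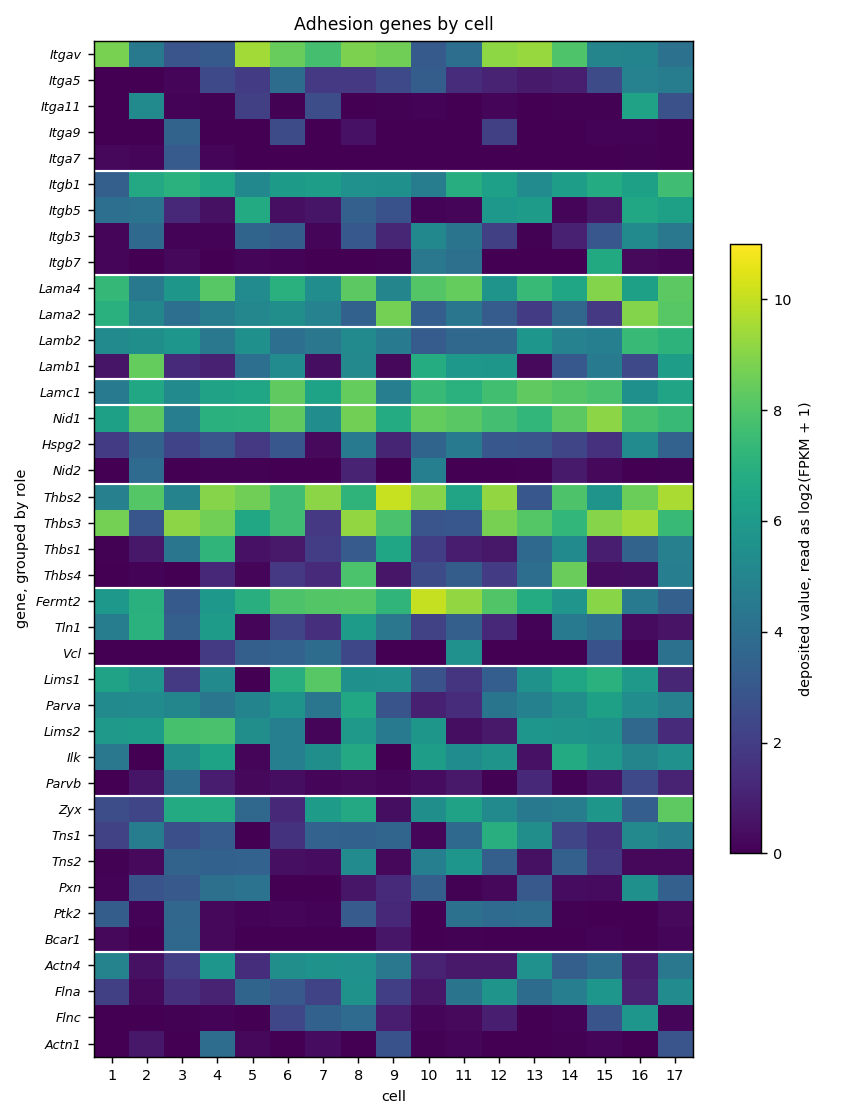
Deposited log2 values of 39 of the 41 adhesion genes (rows, grouped by role and separated by white lines) in the 17 cells (columns). The rows of Nid1, Lamc1 and Lama4 stay at 4.43 or more in all cells and that of Itgb1 at 3.35 or more. The row of Itgb7 is dark except in cells 10, 11 and 15.

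Cells differed moderately in how many of the 41 genes they held. The count at FPKM 1 or more was 22 at the lowest (cell 1), 27 at the median and 33 at the highest (cell 8), with an SD of 3.09. At FPKM 10 or more it ranged from 16 in cells 1, 7 and 9 to 24 in cell 17. The mean over the 41 genes was lowest in cell 1 (2.71) and highest in cell 8 (4.25), then cell 17 (3.99). The number of rows at the lowest value, the remaining sign of library complexity, was 1082 in cell 1, 1259 in cell 8 and 1766 in cell 17, and over the 17 cells it had a Pearson correlation of 0.36 (Spearman 0.38) with the count at FPKM 1 or more, 0.46 (Spearman 0.43) with the count at FPKM 10 or more and 0.27 (Spearman 0.30) with the mean over the genes. Its part in the differences between cells was not tested. Cells 15 to 17 lay between 3.66 and 3.99, cells 6 to 14 between 2.79 and 4.25, and cells 1 to 5 between 2.71 and 3.44.

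Correlations between the genes over cells were low on average. Over the 29 genes detected in at least 9 cells, the mean pairwise Pearson correlation was 0.0478, against 0.000553 over the 3964 rows under the same filter. Single pairs ranged from -0.79 (Fermt2 and Lamb2, -0.73 in cells 6 to 14) to 0.77 (Lamb1 and Itgb3, 0.89 in cells 6 to 14). Lamb1 and Nid1 had 0.68, and Zyx and Ilk 0.63. With 406 pairs over 17 cells, pairs at the ends of the range were chosen by their values, and they are given as a description. The median SD over cells was 2.03 for these genes and 2.16 for all rows under the filter. Among genes at FPKM 10 or more in at least 9 cells the median SDs were 2.07 and 2.08, and the mean pairwise correlations 0.0310 and 0.00463.

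Other genes of the adhesion pathway were detected to differing degrees. Of 118 listed symbols 98 had a row. Cd98, listed without a row, is another name of Slc3a2, which is also listed and had a row. Among the 98, 31 were detected in all 17 cells, 18 of them at FPKM 10 or more in every cell. Of all rows 13% and 5.65% reach these marks. Of 15 integrin-associated membrane proteins 10 were in all cells, 5 of them at FPKM 10 or more, led by the tetraspanins Cd63 (mean 10.76, SD 0.69), Cd81 (mean 9.11, SD 0.86) and Cd9 (mean 8.56, SD 1.96) and by basigin, Bsg (mean 8.02, SD 0.69). Of 20 genes of the actomyosin machinery and its regulators 11 were in all cells, 7 of them at FPKM 10 or more, led by Myl6 (mean 10.22), Pfn1 (mean 9.70), Myl12a (mean 9.24) and Myl12b (mean 8.11). Of 36 adaptors and kinases 1 was, a share below that of all rows. It was the integrin-activating GTPase gene Rap1b (mean 7.35, SD 0.76, all cells at FPKM 10 or more), followed by Pdlim1 and Itgb1bp1 in 16 cells each and Rap1a in 15.

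Of 18 measured integrin ligands 7 were detected in all cells, 5 of them at FPKM 10 or more, led by Ecm1 (mean 11.16), Col1a2 (mean 10.98), Col1a1 (mean 8.82) and Fn1 (mean 8.52). Of 9 measured basement membrane genes outside the laminin and nidogen families 2 were in all cells and none at FPKM 10 or more, the collagen IV chain genes Col4a1 (mean 5.76, SD 1.92, 15 cells at FPKM 10 or more) and Col4a2 (mean 4.60, SD 1.81, 13 cells). Smoc2 and Col15a1 followed with 16 cells each.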

How the data were processed

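RNA from 17 single skin cells was analysed. Per the labels' protocols, digestion of back skin (elastase, then collagenase) preceded a sort for Tomato, after which cells were picked one by one at a microscope. A SMART-Seq kit that reads 3′ ends and Nextera XT gave the libraries. GRCm38, Cufflinks and TopHat2 are named in the submitters' processing notes. For settings and versions, the sources used here give nothing. Expression values as deposited by the authors are on a log scale, read as log2 of FPKM plus 1. Base and constant are not stated, and back-transformed with base 2 cell 1 sums to 592955, with base e to 12675767. Sorted deposited log2 values differed between cells by at most 0.0165 above 3, the form that quantile normalisation gives. Depth is unknown, and no doublet check was made beyond the authors' picking.

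Of 8446 rows, 8431 (99.8%) matched GENCODE M21 (GRCm38) by Ensembl identifier, including all 41 adhesion genes. Promoter sequences are from RefSeq (GRCm38.p6). Genes detected in at least 9 cells are given with lowest, median and highest value, mean and SD, and others with their count of cells and highest value. Some genes of the set enter the counts but are not reported here by name. Of other lists the 4 genes detected in the most cells are named. The genes, lists and complexes were chosen with earlier results of these data known. Intervals are exact Clopper-Pearson 95% intervals and cover counting over cells only. Ilk, Vcl, Nid2, Actn4, Lama2 and Itga7 overlap a gene of the opposite strand at the 3′ end. Their values are uncertain, since use of strand in counting is not stated. For Lama2 and Itga7 the overlap covers 93 and 9 of the last 500 exonic bases. The mean pairwise correlation, gene means and SDs were checked on simulated normal values without a floor. Detection counts, joint detection, intervals, overlaps and promoter counts were not simulated. Computation used scipy 1.17.1, pandas 2.3.3 and numpy 2.4.6 under Python 3.11.15, and figures matplotlib 3.10.9. Alternatives covered the threshold, pseudocount, scaling, length, filter, correlation measure and cells used.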

Additional observations from a re-analysis of the deposited data

How the results depend on the processing

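Counts depended mainly on the detection threshold. Genes detected in all cells, 10 at FPKM 1 or more, numbered 25 at any value above the lowest, 8 at FPKM 5 and 3 at FPKM 10. Of the partner sets, 4 were complete in every cell, which became 11 with any value above the lowest counted and 1 at FPKM 10. The median per cell, 27, was 38 above the lowest value, 23 at FPKM 5 and 19 at FPKM 10. The 31 other pathway genes in all cells numbered 18 at FPKM 10. The thresholds themselves set these shifts.

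With each cell left out in turn, a setting chosen after seeing the data, genes in all cells numbered 10 to 11, complete sets 4 in each case and the median per cell 26.5 to 27.5. Of the 10 highest genes 9 to 10 stayed. The gap to all rows was -0.190 to -0.0755 in median SD (-0.127 with all cells) and 0.0254 to 0.0546 in mean pairwise correlation (0.0472 with all cells). With genes kept at FPKM 10 or more in at least 9 cells the SD gap all but vanished, at -0.00519, and the correlation gap was 0.0264. With no filter beyond detection in 1 cell they were -0.0350 and 0.0295. With values multiplied by exonic length 9 of the 10 highest genes stayed, Lamb2 giving way to Parva, and in cells 6 to 14 8 stayed. The mean of each of the 41 genes moved by less than its SD under the median, cells 6 to 14 and omission of cell 16. These shifts stay within the SD for any values, so they do not measure stability. Rescaling changed the means little, since the cells already share 1 distribution of values. No paired analysis was possible because all cells form 1 group. The files give no depth from which a limit of detection could be set.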
